A study of Mus musculus with 2 samples.

Results

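The type I interferon-stimulated genes are a set of 40 mouse genes that cells switch on after interferon alpha or beta binds its receptor. The members were taken by gene name from both count tables, and all 40 of 40 were found, among 34400 genes listed in either table. Both samples came from CT26 tumours, CT26 being a colon cancer line of mice. One library is from mice given an antibody against SLC7A11 (labelled SLC7A11-Ab), the part of the cystine/glutamate exchanger that carries cystine into cells, and one from mice given an IgG antibody (labelled Control). The cells were placed at the cecal junction, although the design text also speaks of subcutaneous growth, and each antibody was given at 10 mg/kg body weight on every other day once tumours measured 50 to 100 mm³. The strain, sex and age of the mice and the number of animals behind each library are not given in the sources used here. Each group was 1 library of single cells counted with unique molecular identifiers (UMIs, which mark single RNA molecules). No difference below therefore has a replicate check, no test was made, and every 95% interval covers counting error only.

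Type I interferons bind a receptor of the chains Ifnar1 and Ifnar2, which signals through the kinases Jak1 and Tyk2. These activate a complex that holds Stat2 and Irf9 and binds the interferon-stimulated response element (ISRE) in promoters. The induced genes block viruses at many steps and feed back on the pathway: Ifit proteins bind viral RNA, Oas enzymes sense double-stranded RNA, Isg15 is a ubiquitin-like modifier, and Usp18 removes Isg15 and dampens receptor signalling. In tumours the same programme runs in cancer cells, stroma and leukocytes. Many of the genes also respond to interferon gamma, which T and NK cells make.

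The upstream stretches of 5 members are shown because the ISRE is the element through which type I interferon acts on such genes. Each line gives the 130 bases before the RefSeq start site, 5′ to 3′ on the gene's strand, from RefSeq's GRCm38.p6 promoters. Capitals mark the ISRE core, GAAANNGAAA on either strand, and neighbouring matches can share a GAAA.
Isg15: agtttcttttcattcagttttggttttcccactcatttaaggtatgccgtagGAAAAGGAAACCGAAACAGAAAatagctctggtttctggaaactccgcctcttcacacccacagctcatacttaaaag
Ifit1: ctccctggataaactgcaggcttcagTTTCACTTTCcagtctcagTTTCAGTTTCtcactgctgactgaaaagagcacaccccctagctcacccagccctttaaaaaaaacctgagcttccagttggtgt
Rsad2: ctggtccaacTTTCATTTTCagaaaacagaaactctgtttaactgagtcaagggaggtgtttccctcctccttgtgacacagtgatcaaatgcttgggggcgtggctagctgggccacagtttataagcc
Bst2: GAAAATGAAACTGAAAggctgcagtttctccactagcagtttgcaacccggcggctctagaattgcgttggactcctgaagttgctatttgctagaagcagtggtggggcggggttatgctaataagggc
Ifit3: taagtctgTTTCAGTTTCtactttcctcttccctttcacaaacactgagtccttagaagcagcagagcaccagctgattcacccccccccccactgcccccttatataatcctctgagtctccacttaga

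The Isg15 stretch is chr4:156200819-156200948 on the minus strand and holds 3 overlapping matches, which begin 78, 72 and 66 bases before the start site. Ifit1 (chr19:34640759-34640888, plus strand) holds 2 matches, 104 and 85 bases before the start. Rsad2 (chr12:26456453-26456582, minus strand) has 1 match at 120 bases, and Bst2 (chr8:71537473-71537602, minus strand) has 2 overlapping matches at 130 and 124 bases. Ifit3 (chr19:34583399-34583528, plus strand) has 1 at 122 bases. Over the whole 300-base windows, from 250 bases before to 50 after the start, 30 of the 40 members matched the RefSeq table and 18 of these 30 (60.0%) held the core, against 3.99% of all 27025 genes in it. Counted per window, 52.8% of the 36 member windows and 3.44% of all 32851 windows held it. The interferon-gamma element TTCNNNGAA, searched on both strands, can share a GAA with the core and was in 5 of the 30 matched members (16.7%) and in 9.55% of all genes. A match describes letters, not a binding site. The members with and without the core had close median ratios in tumour-like cells (0.95 and 1.00 on the log2 scale, 17 and 12 members with enough counts).

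The members lie on 15 chromosomes (GENCODE, GRCm38). The 4 Ifit genes lie together on chromosome 19, the 5 IFI200 genes on chromosome 1 and the 5 Oas and Oasl genes on chromosome 5. Some share long stretches with near copies, which the authors' counting may split. Of the 60-base stretches in the annotated transcripts, 47.0% of those of Ifit3 also occur in another gene, all of them in Ifit3b. The share was 52.9% for Oas1a (with Oas1g), 40.8% for Ifit3b, 38.1% for Phf11b and 28.4% for Ifi209, and it was at most 16.5% in every other member. Values of these 5 genes are therefore uncertain as to which copy they count.

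After filtering and doublet removal the antibody library kept 10897 cells and the control library 12326, with median depths of 7201 and 7052 UMIs. Clusters made without the members were named from marker genes, Y-linked genes and depth, which gave 7 classes for this description. Unnamed clusters, mostly shallow, held 1337 antibody cells (12.3%) and 743 control cells (6.03%), with median depths of 1015 and 1294 UMIs. These cells are in no class, and the members summed to 4452 and 2751 counts per 1000000 UMIs in them. Tumour-like cells numbered 5070 in the antibody library and 8229 in the control library, decorin-high cells 1171 and 1703, fibroblast-like cells 239 and 221, and macrophage-like cells 934 and 798. There were 228 and 139 neutrophil-like, 498 and 89 CD8 T-like, and 314 and 95 NK-like cells. Within a class the cells of each library mostly sat in clusters of their own: tumour-like cells in clusters 0, 6 and 7 for the antibody and 1, 2, 3 and 4 for the control, decorin-high cells in 8 and 5, macrophage-like cells in 9 and 10. The libraries also differed in depth, with a median of 16279.5 UMIs per tumour-like cell in the antibody library and 9786 in the control library. The labels name goblet cells, but the 8 goblet markers summed to only 1.26 CPM (counts per 1000000 UMIs) in the antibody library and 2.11 CPM in the control library. Tumour-like cells carried Ereg (a UMI in 83.7% of antibody and 78.0% of control cells) and Msln (67.9% and 60.3%), whereas Epcam and Krt19, defining markers of epithelium, were in at most 0.0394% of cells of either library. The keratin genes Krt18 and Krt8 were in 28.9% and 1.64% of antibody and in 28.1% and 1.62% of control tumour-like cells. Areg differed between the libraries, with a UMI in 47.1% of antibody and 17.5% of control tumour-like cells. Y-linked genes, which mark cells of a male host, summed to 1.84 and 0.618 CPM in tumour-like cells and 2.10 and 1.44 CPM in decorin-high cells, against 124 and 126 CPM in macrophage-like cells. The naming rule fixed this contrast, so it does not test the origin of the cells. Only clusters below 15% of the Y-linked level of leukocyte clusters could be tumour-like or decorin-high, and only the others a host class. Deep clusters below that limit were tumour-like unless matrix markers scored higher, with no minimum score. The libraries shared 39 barcodes, of which 31 were among the kept cells of both. Leaving out the cells of these 31 barcodes moved no summed ratio beyond its counting interval.

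In tumour-like, decorin-high and fibroblast-like cells the interferon-stimulated genes were higher in the antibody library, and in macrophage-like, CD8 T-like and NK-like cells they were lower. Summed over the 40 members, tumour-like cells held 5555 CPM in the antibody library and 2824 CPM in the control library, which is 1.97-fold (log2 ratio 0.98, interval 0.97 to 0.98). Decorin-high cells held 6570 and 3900 CPM (log2 ratio 0.75, 0.73 to 0.77), and fibroblast-like cells 5293 and 3553 CPM (0.58, 0.53 to 0.62). Macrophage-like cells held 5785 CPM in the antibody library and 7413 CPM in the control library (log2 ratio -0.36, -0.38 to -0.33), CD8 T-like cells 3647 and 4818 CPM (-0.40, -0.50 to -0.30), and NK-like cells 3381 and 6644 CPM (-0.98, -1.08 to -0.87). Neutrophil-like cells had the highest sums of the 7 classes, 17790 and 13929 CPM (0.35, 0.26 to 0.44). Over all genes with at least 20 counts, the median log2 ratio lay between -0.18 and -0.02 in these classes. Scaling to that median in place of the class total would move every ratio of a class up by the same amount, 0.16 in tumour-like, 0.17 in macrophage-like, 0.12 in CD8 T-like and 0.07 in NK-like cells, and would turn the sign of no class sum. Among the smaller classes, plasmacytoid dendritic-like cells, the specialised makers of type I interferon, held 12280 CPM in 79 antibody cells and 8060 CPM in 14 control cells, and monocyte-like cells 10205 and 9140 CPM in 637 and 117 cells. The order of the classes was not the same in both libraries. In the control library tumour-like cells were the lowest of the 7 classes, at 2824 CPM. In the antibody library tumour-like, fibroblast-like and macrophage-like cells lay between 5293 and 5785 CPM, and NK-like cells were the lowest at 3381 CPM.

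**Figure D1:**
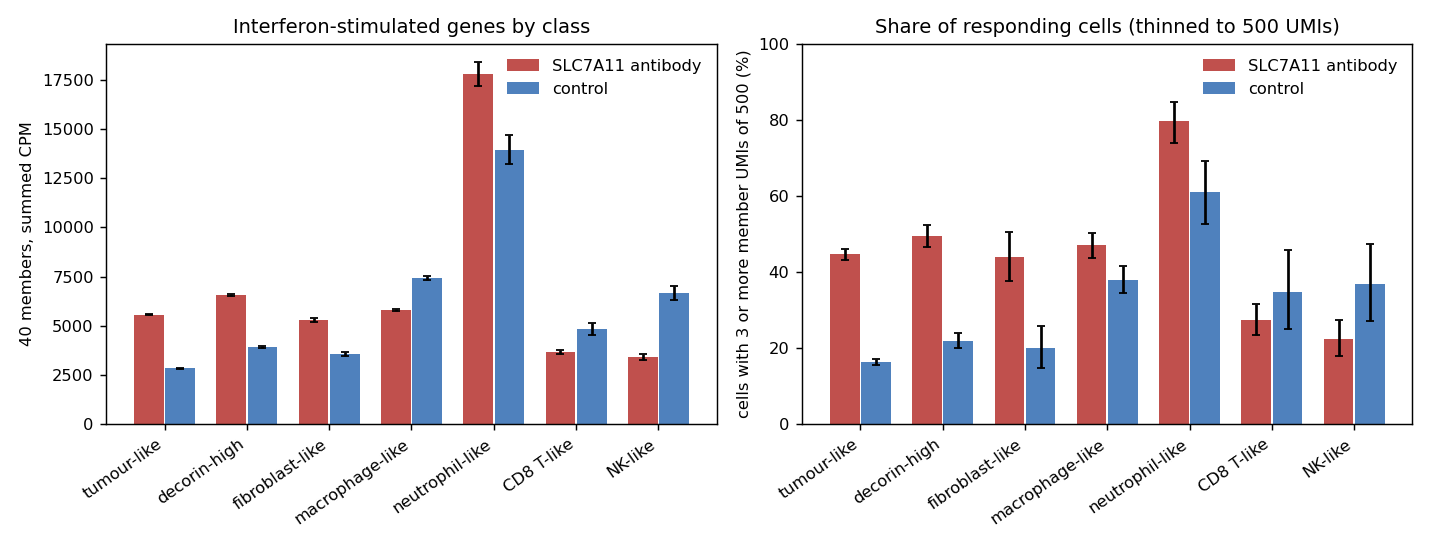
Left, summed CPM of the 40 members by class (bars with exact Poisson 95% intervals), SLC7A11 antibody in red and control in blue. Right, the share of cells with 3 or more member UMIs after thinning to 500 UMIs (exact binomial 95% intervals); tumour-like cells stood at 44.6% and 16.4%, NK-like cells at 22.3% and 36.8%.

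In tumour-like cells every member with at least 20 counts, 39 of 39, had a higher CPM in the antibody library, and 19 of these were at least 2-fold higher, where 11.5% of all 18304 genes tested there passed that fold. None was at least 2-fold lower, against 4.49% of all genes. With scaling to the median gene, 29 members were at least 2-fold higher, where 13.6% of all genes were. The median member stood at a log2 ratio of 0.98, and the median gene at -0.16. Bst2, a membrane tether that holds budding virus at the cell surface, was the most abundant member, with 2309 CPM in the antibody library and 1149 CPM in the control library. It made up 41.6% and 40.7% of the sum, and the log2 ratio was 0.95 without it. Isg15 followed with 487 and 256 CPM, then Ifi27l2a with 344 and 126 CPM. The largest ratio was that of Zbp1, a sensor of left-handed nucleic acid that can trigger necroptosis, with 246 CPM in the antibody library and 48.7 CPM in the control library (log2 ratio 2.34, 2.29 to 2.38). Behind it came Ifi214 at 2.17 on only 1.05 and 0.229 CPM, and Cmpk2, a nucleotide kinase gene next to Rsad2, with 11.7 and 3.07 CPM (1.92). Tumour-like cells of the antibody library also carried more leukocyte transcripts, 228 against 92.4 CPM of the 10 macrophage markers (all detected in both libraries, and at 34874 and 41591 CPM in macrophage-like cells) and 12.97 against 2.22 CPM of the 7 T cell markers, and their part in the result was not tested.

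Of the 3 transcription factors among the members, Stat2 and Irf9 were at least 2-fold higher. Stat2 stood at 71.1 CPM in antibody tumour-like cells and 20.6 CPM in control ones (log2 ratio 1.78), Irf9 at 69.1 and 32.1 CPM (1.11), and Irf7, which amplifies interferon production, at 114 and 61.0 CPM (0.90). Of the 5 Oas and Oasl genes, 3 were at least 2-fold higher, led by Oasl2 with 107 and 34.3 CPM (1.64), while Oasl1 stood at 46.7 and 37.9 CPM (0.30). None of the 4 Ifit genes reached 2-fold. Ifit3 had 87.3 and 45.1 CPM (0.95), Ifit1 49.6 and 26.4 CPM (0.91), and Ifit2 only 17.0 and 14.6 CPM (0.22). The IFI200 genes, which encode DNA-binding sensors, were nearly level apart from Ifi214. Ifi203 had 290 and 258 CPM (0.17), Ifi204 123 and 109 CPM (0.17), and Ifi209 1.43 and 1.37 CPM (0.06, -0.31 to 0.43), within counting error. Eif2ak2, the double-stranded RNA-activated kinase PKR, was likewise close, at 66.1 and 56.7 CPM (0.22). Among the 13 other effectors 9 passed 2-fold, among them Ifi44 (111 and 37.6 CPM), Xaf1 (138 and 50.2 CPM), Parp14 (38.8 and 14.3 CPM), Rtp4 (91.9 and 34.9 CPM) and the antiviral radical enzyme gene Rsad2 (36.7 and 13.9 CPM). Slfn5 was nearly absent from tumour-like cells, with 0.995 and 0.550 CPM, although fibroblast-like cells held 150 and 63.9 CPM. Ifi213 did not reach 20 counts in any of the 7 classes.

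Decorin-high cells, which by the naming rule also had few Y-linked transcripts but express matrix genes, had the same direction. Their summed ratio was below that of tumour-like cells, except with members among the variable genes (1.02 in decorin-high, 0.94 in tumour-like cells). Of 37 members with enough counts 34 were above 0 and 10 were at least 2-fold higher, where 9.84% of all genes were, and 0 were at least 2-fold lower, where 4.64% of all genes were. With scaling to the median gene, 16 members were at least 2-fold higher, where 12.1% of all genes were. Bst2 stood at 2368 CPM in the antibody library and 1403 CPM in the control library (log2 ratio 0.75), and Isg15 at 582 and 401 CPM (0.54). Zbp1 again stood highest, with 431 CPM in the antibody library and 142 CPM in the control library (log2 ratio 1.60). Cmpk2 (10.8 and 3.96 CPM), Parp14 (67.4 and 24.98 CPM), Stat2 (123 and 46.1 CPM) and Ifi27l2a (451 and 179 CPM) followed at 1.43, 1.43, 1.42 and 1.33. At the low end were Ifi209, with 1.16 and 2.16 CPM (-0.88, -2.13 to 0.26), Ifit2, with 19.96 and 23.7 CPM (-0.25, -0.54 to 0.05), and Oasl1, with 28.8 and 30.02 CPM (-0.06), whose sign turned with scaling to the median gene. Eif2ak2 and Trim30a stood at 0.13 and 0.16. Fibroblast-like cells were named above the Y-linked limit, and their Y-linked genes summed to 85.4 and 74.3 CPM. In them 8 of 37 members were at least 2-fold higher and 0 lower, where 9.32% and 4.48% of all genes were. Cmpk2, on 9.96 and 2.61 CPM, led at 1.79 (0.41 to 3.91). Rsad2 had 43.3 CPM in the antibody library and 17.6 CPM in the control library (1.28), Slfn5 1.22, Stat2 93.1 and 41.7 CPM (1.15), and Oas3 20.7 and 9.12 CPM (1.14). Isg15 was level there, at 539 and 519 CPM (0.05, -0.07 to 0.18), Isg20, an exonuclease gene, stood at 42.1 and 55.4 CPM (-0.40), and Oasl1 at 29.5 and 43.7 CPM (-0.57, -1.06 to -0.07). Fibroblast-like cells of the antibody library also carried more macrophage marker transcripts, 1229 against 612 CPM, and more T cell marker transcripts, 159 against 36.5 CPM. Neutrophil markers were lower in them, 94.2 against 371 CPM, as were NK markers, 86.2 against 123 CPM. The part of these transcripts in the result was not tested.

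In macrophage-like cells most members were lower in the antibody library. Of 39 members 29 were below 0, 6 were at least 2-fold lower (5.08% of all genes were) and 0 were at least 2-fold higher (9.01% of all genes were). With scaling to the median gene, 25 were below 0 and 3 were at least 2-fold lower (3.13% of all genes were), and Bst2, Oas3, Ddx60 and Herc6 changed sign. The lowest were Ifit3b, with 12.9 CPM in the antibody library and 56.5 CPM in the control library (log2 ratio -2.13, -2.53 to -1.76), and Isg20, with 16.7 and 65.2 CPM (-1.96). Ifi214 had 14.1 and 32.1 CPM (-1.19), Ifit3 102 and 224 CPM (-1.13), and Ifit2 80.7 and 164 CPM (-1.03). Mx1, a GTPase that blocks influenza virus, was the remaining member past 2-fold, with 54.4 and 109 CPM. The abundant members differed less: Bst2 stood at 1229 and 1371 CPM (-0.16), Ifi27l2a at 622 and 783 CPM (-0.33), and Isg15 at 559 and 968 CPM (-0.79). The 5 highest ratios were those of Parp14 (124 and 92.0 CPM, 0.43), Zbp1 (247 and 185 CPM, 0.41), Oasl2 (88.8 and 75.9 CPM, 0.22), Stat2 (91.9 and 79.2 CPM, 0.21) and Rtp4 (146 and 128 CPM, 0.18). Macrophage-like cells of the antibody library had Cxcl9, Arg1 and Mmp12 among the 10 leading genes of their main cluster, those of the control library Fcrls, Pf4, Mrc1 and Folr2, so the class was led by different genes in each library, and this difference cannot be told apart from the treatment. Cluster 10 held 82 antibody and 771 control cells. Within it the members summed to 5997 CPM in the antibody library and 7383 CPM in the control library, while the median cell stood at 5465 and 3121 CPM.

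Neutrophil-like cells had the highest level of the programme and a different ranking of members. Isg15 stood at 6190 CPM in the antibody library and 6114 CPM in the control library (log2 ratio 0.02, -0.12 to 0.16) and made up 34.8% and 43.9% of the sum, while Bst2 made up only 2.39% and 2.36%. Rsad2 was next, with 2675 and 1193 CPM (1.16, 0.87 to 1.46), followed by Rtp4 (840 and 716 CPM), Isg20 (791 and 716 CPM) and Trim30a (694 and 606 CPM). Without Isg15 the summed log2 ratio was 0.57 in place of 0.35. Of 28 members with enough counts 5 were at least 2-fold higher, against 14.7% of all genes, and 0 were at least 2-fold lower, against 6.83% of all genes. These were Zbp1 (258 and 39.8 CPM, 2.54, 1.25 to 4.63), Xaf1 (140 and 39.8 CPM, 1.67), Herc6 (145 and 59.7 CPM, 1.20, -0.02 to 2.85), Parp14 (393 and 169 CPM, 1.19) and Rsad2. The lowest were Eif2ak2 (-0.22), Oasl1 (-0.09), Ifi27l2a (-0.08) and Irf9 (-0.01), each with an interval that includes 0. These cells were shallow, with median depths of 755 and 659 UMIs, and the class rested on 185774 and 100581 UMIs in all.

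Among lymphocytes, all 32 members with enough counts in NK-like cells were lower in the antibody library, 16 of them at least 2-fold, where 5.63% of all genes were; none was at least 2-fold higher, where 11.7% of all genes were. Ifit1 stood at 13.7 CPM in the antibody library and 69.5 CPM in the control library (log2 ratio -2.31, -3.81 to -0.99), Ifit2 at 37.6 and 159 CPM (-2.07), and Herc6, the ligase that attaches Isg15, at 32.5 and 134 CPM (-2.03). Ifit3 had 30.8 and 104 CPM (-1.75), Isg20 70.1 and 233 CPM (-1.73), and Isg15 279 and 918 CPM (-1.72). The members nearest to level were Zbp1 (217 and 268 CPM, -0.31), Parp14 (-0.36), Stat2 (-0.44), Irf9 (-0.45) and Rtp4 (-0.46). Much of the control NK-like sum came from few cells. With 1000 UMIs drawn per cell, 10 of 81 control NK-like cells carried 51.2% of the member UMIs. In the antibody library the cells at that level, 3 of 252, carried 7.71%. The median NK-like cell held 2.5 member UMIs in the antibody library and 3 in the control library. CD8 T-like cells showed 12 of 36 members at least 2-fold lower (8.72% of all genes) and 0 at least 2-fold higher (12.2% of all genes). Slfn5 had 20.1 and 72.3 CPM (-1.87), Usp18 43.7 and 150 CPM (-1.79), Isg20 86.3 and 284 CPM (-1.73), Rsad2 16.7 and 51.6 CPM (-1.68) and Oasl1 10.9 and 30.98 CPM (-1.58). Ifi27l2a was the exception with its interval above 0, at 895 CPM in the antibody library and 573 CPM in the control library (0.64, 0.36 to 0.93). Oasl2, Ifih1, Dhx58 and Zbp1 stood at 0.61, 0.45, 0.38 and 0.29, with intervals that include 0. The control library had only 89 CD8 T-like and 95 NK-like cells, and with at least 100 counts required only 6 and 4 members were at least 2-fold lower, where 3% and 2.1% of all such genes were. When classes were taken from marker transcripts per cell, the summed log2 ratio of CD8 T-like cells was 0.57 in place of -0.40, since 49 antibody cells with 6658 CPM of members and 10 control cells with 2407 CPM and a median of 18860 UMIs, mostly from other clusters, then entered. In the cells that both definitions call CD8 T-like the sums were 3851 CPM in 345 antibody cells and 5016 CPM in 70 control cells.

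**Figure D2:**
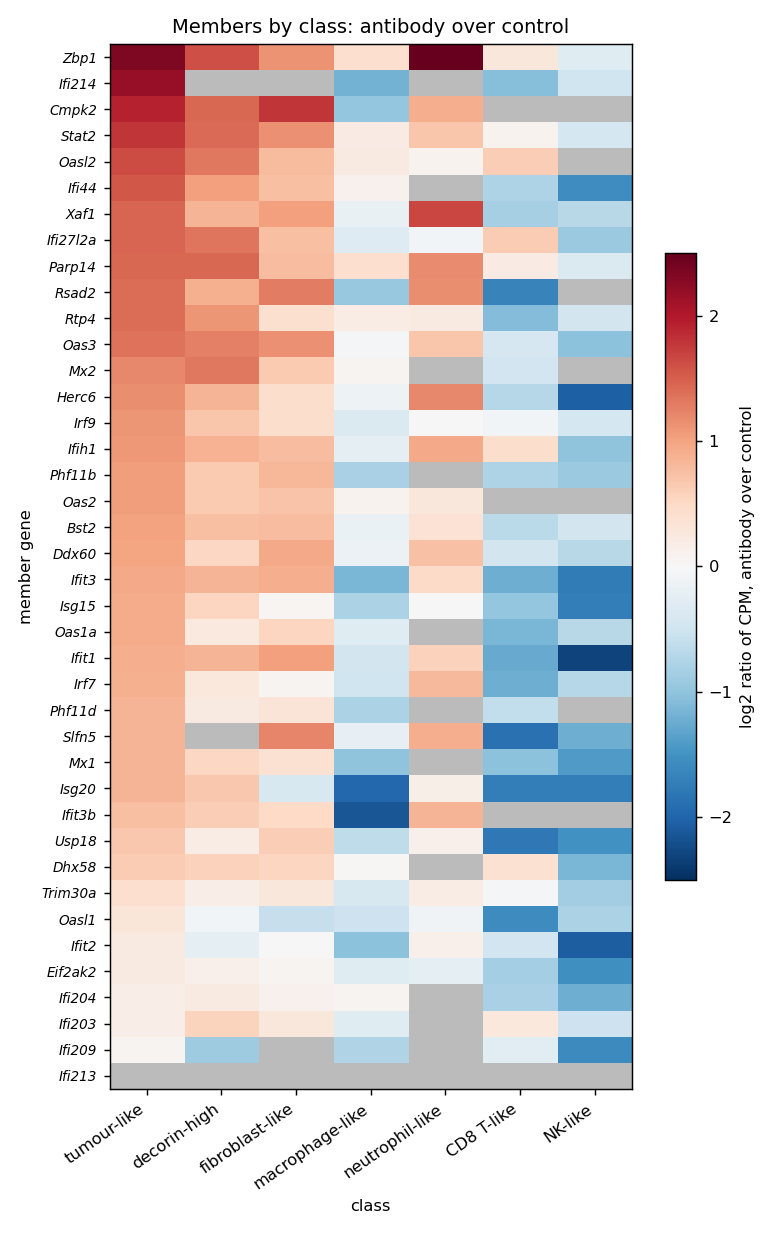
Log2 ratio of CPM, antibody over control, for the 40 members (rows, ordered by the tumour-like ratio) in the 7 classes (columns); grey marks under 20 counts. All coloured cells of the tumour-like column are above 0 and all those of the NK-like column are below 0, with Zbp1 at 2.34 and -0.31.

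By role, the Ifit genes and the Isg15 system had the widest spread of medians between these classes. The 4 Ifit genes had a median log2 ratio of 0.83 in tumour-like, 0.73 in decorin-high and -1.08 in macrophage-like cells, and the 3 of them with at least 20 counts, without Ifit3b, -1.23 in CD8 T-like and -2.07 in NK-like cells. For Isg15, Usp18 and Herc6 the medians were 0.93, 0.54, -0.64, -0.97 and -1.72 in the same order of classes. The sensors Ifih1, Dhx58, Zbp1, Eif2ak2 and Ddx60 spanned less, with 0.98, 0.57, -0.15, 0.29 and -1.01, and so did the factors Irf7, Irf9 and Stat2, with 1.11, 0.69, -0.35, -0.08 and -0.45. With scaling to the median gene the signs of the sensors in macrophage-like cells and of the factors in CD8 T-like cells turned, since those medians lay closer to 0 than the shifts of 0.17 and 0.12. Against the median of the other 6 classes, the median member stood at 1.00 in tumour-like cells and at -1.60 in NK-like cells on the log2 scale.

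A sum can differ through the level of all cells or through the share of cells that respond strongly. To compare cells of unequal depth, each cell was thinned to 1000 UMIs, and a cell with at least 5 member UMIs of 1000 was called responding. In tumour-like cells 52.8% of antibody cells (interval 51.4 to 54.2) and 16.6% of control cells (15.8 to 17.4) responded. At a threshold of 3 UMIs the shares were 77.2% and 34.9%, at 10 UMIs 14.2% and 5.53%, and at 5 UMIs without Bst2 24.3% and 8.84%. The median cell held 5 member UMIs of 1000 in the antibody library and 2 in the control library, and cells with none were 3.49% and 19.4%. The responding cells themselves held 8.44 member UMIs on average in the antibody library and 9.42 in the control library. Cells with at least 20 member UMIs were 1.18% of antibody cells (0.898 to 1.52) and 1.07% of control cells (0.858 to 1.32). At 20 UMIs the shares of the libraries were within counting error of each other, and at 3, 5 and 10 UMIs they were apart, as the curves by class show. Equal shares do not make these the same kind of cell. With the members kept among the variable genes, a tumour-like cluster of 27 antibody and 630 control cells was led by Ifit1, Ifit3 and Ifit3b. With the stricter cell filter and the members left out, a cluster led by these genes held 3 antibody and 217 control cells. The highest 10% of cells held 26.3% of the member UMIs in the antibody library and 42.5% in the control library. The variance divided by the mean was 3.09 and 5.18. Of the difference of 2.77 UMIs between the means, divided with the average of both libraries as weights, 2.51 came from the larger share of responding cells, 0.595 from the higher level of the other cells and -0.338 from the lower level of the responding ones. Responding cells are defined by the same UMIs, with the threshold at the median of the antibody library, so a shift of all cells across the threshold counts as share in this division. Without Bst2 the difference was 1.55 UMIs, of which 1.07 fell to the share, 0.750 to the other cells and -0.269 to the responding ones.

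Decorin-high and fibroblast-like cells resembled tumour-like cells in this. Responding cells were 55.3% in the antibody library and 20.4% in the control library among decorin-high cells, and 50.0% and 16.9% among fibroblast-like cells. Their mean levels were again lower in the antibody library, 8.94 against 10.7 UMIs of 1000 in decorin-high cells and 7.90 against 9.71 in fibroblast-like cells. Decorin-high cells with at least 20 member UMIs were 2.16% and 2.19%. In fibroblast-like cells taken by marker transcripts per cell, of which 67 antibody and 50 control cells were also in the cluster, the shares of responding cells differed by only 1.55 percentage points in place of 33.1. Macrophage-like cells had more responding cells in the antibody library, 51.6% (48.3 to 54.8) against 39.7% (36.3 to 43.3), and a higher median, 5 against 3, although their mean was lower, 6.004 against 7.68. The control library had a long upper tail: 10.4% of its macrophage-like cells (8.39 to 12.8) held at least 20 member UMIs and these 82 cells carried 50.1% of the member UMIs, against 2.05% of cells (1.24 to 3.18) and 9.48% of the UMIs in the antibody library. At a threshold of 10 the shares of responding macrophage-like cells were 16.6% and 22.9%, so the direction of that share depends on the threshold, and when cells were thinned to 5000 UMIs with a threshold of 25 they were 46.4% and 45.7%. NK-like cells responded in 25.4% (20.1 to 31.2) and 42.0% (31.1 to 53.5) of cells, with medians of 2.5 and 3, upper quartiles of 5 and 9, and 1.19% and 12.3% of cells at 20 or more. CD8 T-like cells had equal medians of 3 and responding shares of 31.5% and 31.3%, a difference that had the other sign at thresholds of 3 (54.4% and 60.0%), 10 (9.13% and 13.8%) and 20 UMIs (1.24% and 3.75%). Too few neutrophil-like cells reached 1000 UMIs (30 and 12). At 500 UMIs 79.8% of antibody cells (74.0 to 84.8) and 61.2% of control cells (52.5 to 69.3) held at least 3 member UMIs, with medians of 6 and 3. No class lacks these genes, so there is no background class for these shares; the lowest share at 1000 UMIs was 16.6%, in control tumour-like cells.

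**Figure D3:**
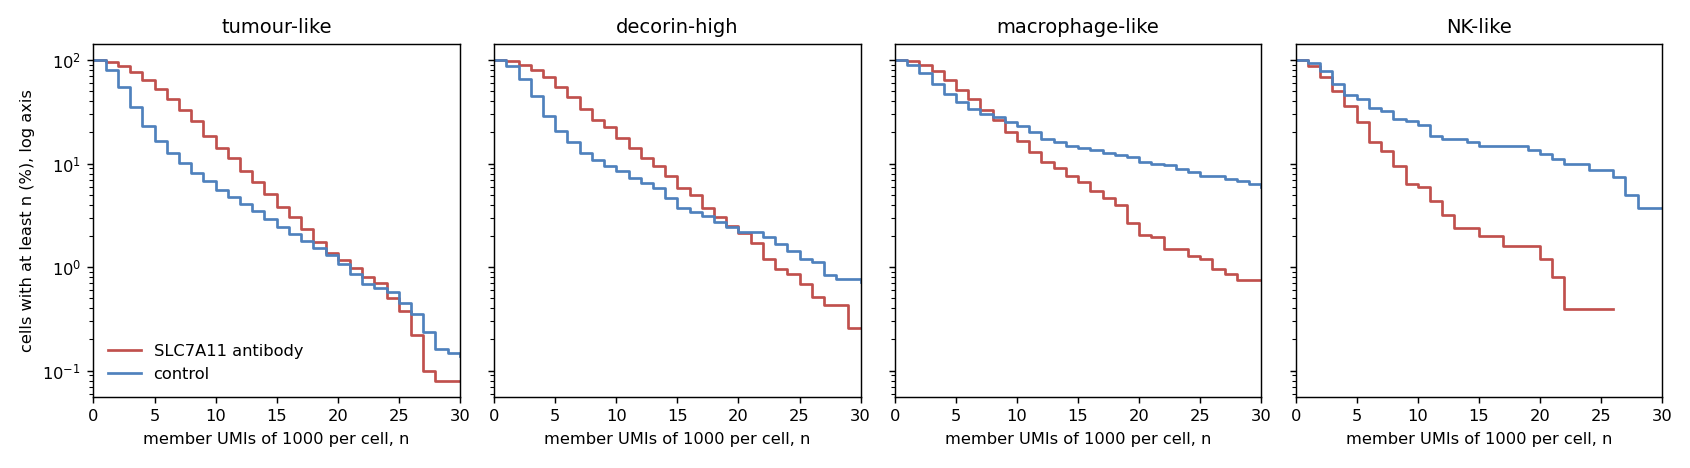
Share of cells (log axis) with at least n member UMIs after thinning to 1000 UMIs, antibody in red and control in blue, for 4 classes. The curves of tumour-like cells meet near 20 UMIs (1.18% and 1.07%), those of macrophage-like cells cross near 8 (26.6% and 27.9%).

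For the strongly responding cells, depth and markers of other cell types are given beside the result, and their part in it was not tested. The 59 tumour-like cells of the antibody library with at least 20 member UMIs had a median depth of 12997 UMIs against 16447 in the remaining ones, 221 against 228 CPM of macrophage markers, and 1.31 against 1.84 CPM of Y-linked genes. T cell markers stood at 23.6 against 12.9 CPM. The 86 such cells of the control library had 9233.5 against 9996.5 UMIs and 89.3 against 91.7 CPM of macrophage markers, and 68.6% of them sat in cluster 2. Their T cell markers stood at 11.7 against 2.10 CPM. Fibroblast markers were higher in them, with 2130 against 1756 CPM in the antibody library and 2956 against 2122 CPM in the control library. The 82 cells of the control macrophage-like class had a median depth of 3262.5 UMIs against 3818 in the rest, and a median doublet score of 0.0394 against 0.0248. Macrophage markers stood at 33556 against 42482 CPM in them and T cell markers at 41.1 against 14.0 CPM. By cluster, tumour-like cells of the antibody library held 4597, 6784 and 5560 CPM of members in clusters 0, 6 and 7. Control cells held 2579, 4249, 2150 and 1808 CPM in clusters 1, 2, 3 and 4. Each of these antibody clusters was above each of these control clusters. Cluster 6 was led by Iigp1, Gbp2, Ubd and Gm12250, which are known to respond to interferon gamma in mice and are not members, and clusters 1 and 7 by genes of mitosis and histones.

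Member by member, cells were ranked by the other members and divided into the highest 10% and the rest. The near copies Ifit3 and Ifit3b, and Phf11b and Phf11d, were left out of each other's ranking, but Ifi209 and Ifi214 were not. Members with at least 100 counts were used. In tumour-like cells outside the highest 10%, all 39 of 39 members were higher in antibody-library cells, at a median log2 ratio of 1.66. Within the highest 10% the median was 0.05, with 22 members above 0 and 17 below. Ifit3 had 362 CPM in the highest 10% of the antibody library and 365 CPM in that of the control library, but 57.0 and 9.71 CPM in the rest. Rsad2 had 190 and 111 CPM in the highest 10% and 19.6 and 3.07 CPM in the rest, and Isg15 had 1398 and 1495 CPM against 388 and 120 CPM. Zbp1 differed in both, with 477 and 270 CPM in the highest 10% and 221 and 24.2 CPM in the rest, so that the highest 10% stood 2.16-fold above the rest in the antibody library and 11.1-fold in the control library. Ifi204 differed little in either, with 226 and 270 CPM and 112 and 92.1 CPM. In macrophage-like cells the medians were 0.14 in the rest and -1.09 in the highest 10%, where all 39 members were lower in the antibody library. There Isg15 had 2269 CPM in the antibody library and 6455 CPM in the control library, Rsad2 874 and 2551 CPM, and Isg20 62.4 and 440 CPM. For decorin-high cells the medians were 1.20 and 0.07 (36 members). For all 39 such members of tumour-like and of macrophage-like cells the highest 10% stood further above the rest in the control library than in the antibody library, with median ratios of 2.77 and 8.66 in tumour-like and 3.19 and 7.06 in macrophage-like cells.

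**Figure D4:**
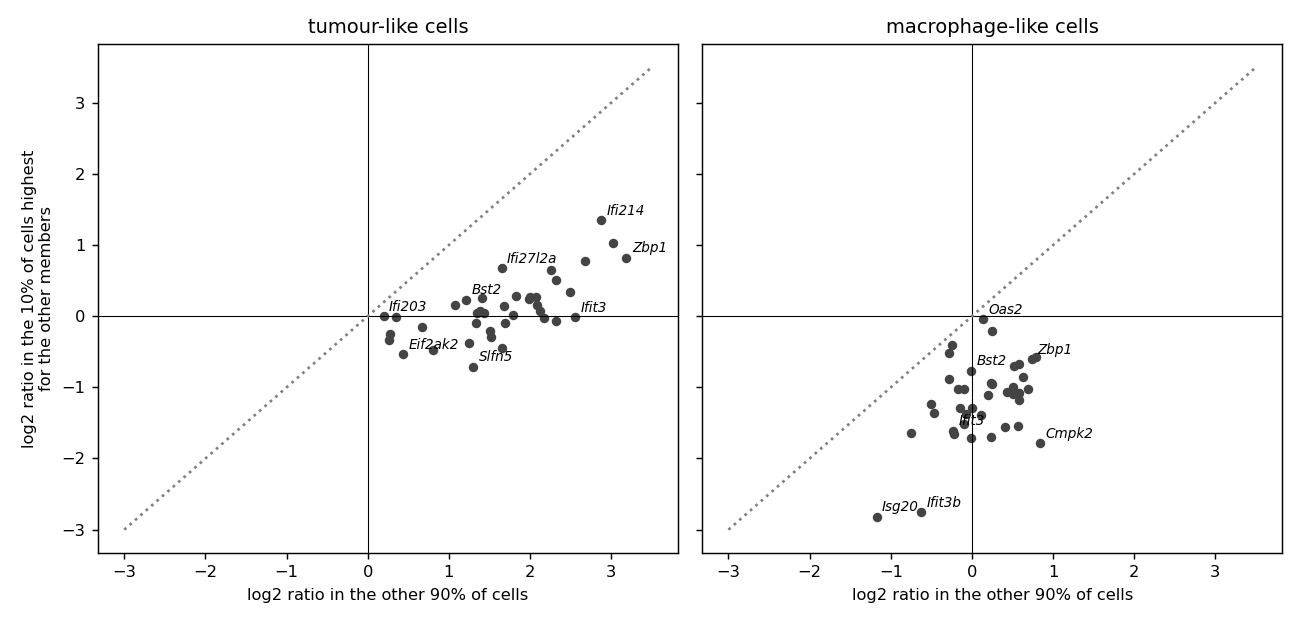
Each point is a member: its log2 ratio, antibody over control, in the 90% of cells lower for the other members (x axis) and in the highest 10% (y axis); the dotted line marks equal ratios. In tumour-like cells the points lie to the right near 0 on the y axis (medians 1.66 and 0.05), in macrophage-like cells below 0 (medians 0.14 and -1.09).

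In tumour-like, decorin-high and macrophage-like cells, those with Ifit3 also held more of the other members, by a larger fold in the control library. Ifit3 was the only member used in this way. Tumour-like cells with an Ifit3 UMI after thinning were 6.79% of antibody cells and 3.18% of control cells. They held 6.80 UMIs of 37 other members (without Bst2 and Ifit3b) in the antibody library, 2.37-fold the 2.87 of cells without Ifit3, and 9.28 UMIs in the control library, 6.77-fold the 1.37 of cells without it. In macrophage-like cells the same folds were 2.38 and 6.70, and in decorin-high cells 2.56 and 5.49. In the antibody library the fold was 1.60 in fibroblast-like and 2.93 in CD8 T-like cells. Too few cells held Ifit3 for a control value in these 2 classes, or for any value in neutrophil-like and NK-like cells.

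Of 100 other pathway genes listed, 83 were in the tables. They cover 77 genes with enough counts in tumour-like cells, of which 29 were at least 2-fold higher and 0 at least 2-fold lower (11.5% and 4.49% of all genes were). In macrophage-like cells 11 of 75 were higher and 4 lower by that fold (9.01% and 5.08% of all genes). The ligands were rare: 6 of 21 were found, and of the type I genes only Ifnb1 had more than 3 UMIs in either library. Ifnb1 had 48 UMIs in 16 of 5070 tumour-like cells of the antibody library and 11 UMIs in 3 of 8229 of the control library (0.525 and 0.126 CPM), and 27 UMIs in 11 of 934 antibody macrophage-like cells with 0 UMIs in 798 control cells, which allows a share of cells with a captured Ifnb1 UMI of up to 0.376% and sets no limit on cells that express it. All 23 UMIs of control decorin-high cells sat in 1 cell. Ifng, the gene of interferon gamma, was at 673 CPM in CD8 T-like cells of the antibody library and 516 CPM in the control library, and at 169 and 89.3 CPM in NK-like cells. Tumour-like cells held 72 and 3 Ifng UMIs, nearly all single UMIs, beside 12.97 and 2.22 CPM of T cell markers, and their part in that count was not tested. Of 6 receptor genes, Ifnar2 stood at 24.2 CPM in antibody and 5.003 CPM in control tumour-like cells (log2 ratio 2.27), and it was at least 2-fold higher in all classes but CD8 T-like cells, where the log2 ratio was 0.51. Ifnar1 was 16.2 and 13.1 CPM (0.31) and Ifngr1 39.8 and 45.5 CPM (-0.20), whereas Ifngr2 had 33.8 and 9.61 CPM (1.81).

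Among the kinases and factors, Irf1 differed in tumour-like cells, with 242 against 31.8 CPM (log2 ratio 2.93), while Tyk2, at 5.05 and 6.78 CPM, and Irf3, at 32.4 and 53.6 CPM, were lower. Irf1 was at least 2-fold higher in all 7 classes, also where the members were lower: 222 and 65.2 CPM in macrophage-like, 359 and 103 CPM in CD8 T-like, and 398 and 174 CPM in NK-like cells. Of the inhibitors, Socs1 (9.36 and 2.13 CPM), Socs3 (64.9 and 8.47 CPM) and the phosphatase gene Ptpn1 (78.5 and 27.4 CPM) were higher in tumour-like cells. Socs3, which Stat3 induces, was at least 2-fold higher in all 7 classes. The sensors and adaptors were nearly level there: 1 of 11 was 2-fold higher (Tlr9, on 0.503 and 0.103 CPM), and Sting1 stood at 42.2 and 37.8 CPM. Of 39 further interferon-induced genes, 16 were at least 2-fold higher and 0 lower in tumour-like cells, where 11.5% and 4.49% of all genes were, with a median of 0.92. Cxcl10, a chemokine that draws T cells, had 469 CPM in the antibody library and 70.8 CPM in the control library (2.73). In macrophage-like cells 2 of 38 were 2-fold higher and 3 lower, near the shares of all genes (9.01% and 5.08%), and Cxcl10 was close, at 680 and 626 CPM. In NK-like cells 0 of 19 were 2-fold higher and 4 lower (11.7% and 5.63% of all genes). Immediate-early genes, a list of 8 picked after values were seen that includes Fos, Jun and Egr1, summed to 6573 CPM in the antibody library and 3624 CPM in the control library in tumour-like cells and were higher in all 7 classes, as in NK-like cells with 5560 and 1454 CPM. A list of 5 heat-shock genes, also picked after values were seen, had a median log2 ratio of 1.26 in tumour-like, 1.74 in decorin-high, 0.46 in macrophage-like and 1.61 in NK-like cells. Its sum was 1763 and 1536 CPM in tumour-like cells, and in macrophage-like cells it was lower in the antibody library, 706 and 887 CPM, against the sign of the median. The part of both lists in the values of Irf1, Socs3 or the members was not tested. Genes of the pathway named here under 2-fold apart were chosen after their values were seen.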

How the data were processed

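The authors deposited 1 table of whole-number UMI counts per gene and cell for each library. Per the labels' protocols the cells were processed with the 10x Genomics 3' kit, and the submitters' processing notes name Cell Ranger 7.2.0, Seurat and mm10; the filters applied before deposit are not given in the sources used here. The tables held 12153 and 13910 barcodes with 143658800 and 129044329 UMIs in the antibody and the control library. Of the gene IDs 28526 were in both tables, 2768 only in the antibody table and 3106 only in the control table, and a gene missing from a table was counted as 0.

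Cells with at least 200 genes, at least 500 UMIs and under 20% mitochondrial UMIs were kept, and 9.65% and 11.1% of these were removed as doublets by Scrublet scores, taking the highest at a rate of 0.8% per 1000 cells. Cells were clustered with scanpy 1.11.5 and leidenalg 0.10.2 (2000 variable genes without the members, 30 components, 15 neighbours, resolution 1.0) into 27 clusters. Clusters were named from marker lists, the level of Y-linked genes and depth, and CD8 T-like cells within T-like clusters by Cd8 transcripts. The naming and gating rules were settled after seeing the data, over several tries. The members and all lists were chosen with earlier results of these data known.

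Per class, UMIs were summed over cells and scaled to the class total (CPM). Ratios had a prior count of 0.5 and needed 20 counts over both libraries; named members were the 5 highest in CPM and the 5 highest and 5 lowest ratios per class, with others named by role. Intervals are exact Poisson for CPM, exact conditional binomial for ratios and Clopper-Pearson for shares, at 95%. For shares of cells, each cell was thinned to 1000 UMIs without replacement and shallower cells were left out: 60 of 5070 antibody and 199 of 8229 control tumour-like cells, 5 and 13 macrophage-like, 62 and 14 NK-like, 16 and 9 CD8 T-like and 198 and 127 neutrophil-like cells. The scripts were tested on simulated data. Positions are from GENCODE and promoter sequences from RefSeq, both GRCm38, of which mm10 is another name. Free RNA was not removed. Other cell filters, classes, scalings, count minimums and thresholds were tried.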

Additional observations from a re-analysis of the deposited data

How the results depend on the processing

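Of 166 recomputed values, 105 stayed within their counting interval, or a count within 1.5 times, 49 moved further with the same direction and 12 changed direction. With 1 library per group no replicate could be left out, and no paired analysis was possible because there are no replicates. The cause of a change was not tested unless the alternative's construction shows it.

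Summed log2 ratios in tumour-like cells were 1.00 without doublet removal, 0.94 with the members among the variable genes, 1.01 with classes from marker transcripts, 1.14 with median-of-ratios scaling, 0.96 as a mean over cells and 0.95 without Bst2. In decorin-high cells they were 0.83 with the stricter filter, 0.80 without doublet removal, 1.02 with members kept, 0.61 with marker transcripts and 0.92 with median-of-ratios scaling. In fibroblast-like cells they were 0.50 with the stricter filter and 0.50 without doublet removal, 0.64, 0.37 and 0.76 under the other 3 in that order, 0.73 as a mean over cells and 0.49 without Bst2. In macrophage-like cells they were -0.28 without doublet removal, -0.24 with marker transcripts, -0.19 with median-of-ratios scaling and -0.41 without Bst2. The neutrophil-like sum was 0.57 without Isg15 and the NK-like sum -1.08 with marker transcripts. The CD8 T-like sum was -0.28 with median-of-ratios scaling and -0.63 without Ifi27l2a, and with marker transcripts it was 0.57 and the median member 0.45, both reversed. Median members with marker transcripts were 1.08 in tumour-like and 0.43 in decorin-high cells.

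With median-of-ratios scaling 29 members of tumour-like and 16 of decorin-high cells were at least 2-fold higher, where 13.6% and 12.1% of all genes were. In macrophage-like cells 3 were at least 2-fold lower, where 3.13% of all genes were. With a minimum of 100 counts 6 and 4 members were at least 2-fold lower in CD8 T-like and NK-like cells, where 3% and 2.1% of all such genes were. At that minimum 1 member was at least 2-fold higher in neutrophil-like cells. With no count minimum 1 member each was at least 2-fold lower in decorin-high and neutrophil-like cells. The share of all genes was not computed for these last 2 settings, so nothing is read from those counts.

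Differences in responding shares, in percentage points, were 42.3, 8.70 and 0.107 in tumour-like cells at thresholds of 3, 10 and 20, 28.3 at 500 UMIs and 15.5 without Bst2. In decorin-high cells they were 9.03 and -0.038 at 10 and 20, 27.5 at 500 UMIs and 17.3 without Bst2. In fibroblast-like cells they were 1.01 and -0.580 at 10 and 20, 1.55 with marker transcripts and 17.5 without Bst2. In macrophage-like cells they were 19.6, -6.35 and -8.40 at 3, 10 and 20, and 0.665 at 5000 UMIs. In CD8 T-like cells they were -5.64, -4.62 and -2.51 at 3, 10 and 20, -15.0 at 2000 UMIs, -7.52 at 500 UMIs and -1.15 without Bst2. The values at 500 and 5000 UMIs, at 20, without Bst2 and without shared barcodes were added after seeing the data. Too few neutrophil-like cells passed the stricter filter or reached 2000 UMIs for a value.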
